A study of Caenorhabditis elegans with 30 samples.

Results

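The 45 genes described here encode the contractile apparatus of Caenorhabditis elegans muscle, and their expression was followed in worms exposed to ethanol and in swsn-9 mutants. They were chosen by name as components of thick filaments, thin filaments, troponin and the attachment structures that anchor filaments to the muscle membrane. They are 45 of the 46739 genes in the count table, and all 45 passed the filter on low counts. RNA was sequenced from whole first-day adult hermaphrodites in 30 libraries, 5 in each of 6 groups. In every group about 100 worms at the L4 stage were kept at 20 °C for 18 h on sealed plates. The swsn-9 mutants (strain RA503, allele swsn-9(ok1354)) were exposed to 400 or 0 mM ethanol and harvested immediately. Wild-type worms (N2) were exposed to 400 or 0 mM ethanol and harvested either 6 h after removal from the plates or immediately. The mutants are a single strain carrying a single allele, and no mutants harvested at 6 h were analysed here. swsn-9 encodes a subunit of a SWI/SNF complex, which remodels chromatin. The mutated gene itself was at 52.3 to 65.5 CPM in the mutant libraries against 181.5 to 214.7 CPM in the wild-type libraries. Levels are given as CPM, the counts of a gene relative to all counts of its library, after scaling between libraries with the TMM method of edgeR.

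In the body wall muscle of worms, thick filaments of myosin interdigitate with thin filaments of actin, and calcium acts through troponin and tropomyosin to let them slide past each other. Thin filaments are held at dense bodies and thick filaments at M-lines. At both sites integrin, together with kindlin, integrin-linked kinase, PINCH and parvin, ties the filaments to perlecan in the basement membrane, and so to the epidermis and cuticle. The pharynx, the pump that takes up food, uses its own myosin and troponin genes. Whole worms were sequenced, and CPM is relative to all counts of a library. Fewer muscle cells, less RNA per muscle cell and more RNA from other tissues therefore cannot be told apart in any value given here.

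Totals of 11812827 to 23505210 counts per library lie behind these values, and of 60 pairs of libraries within groups none were copies of each other. By a chi-square per gene, replicate 1 of the wild type at 6 h after 400 mM stood far from the other 4 of its group (239.9 to 298, against 6.62 to 16.4 among those 4), with a scaling factor of 0.798. Replicate 1 at 6 h after 0 mM (46.5 to 66.8, against 3.63 to 8.89) and replicate 5 of the immediate harvest at 0 mM (47.2 to 64.1, against 5.07 to 14.6) also stood apart, less far. Without the first, 2 members were called for ethanol at 6 h, 2 for the ethanol response by time and 3 for time at 400 mM. Without the second, none were called for ethanol at 6 h, 1 by time and 6 for time at 0 mM. Without the third, 3 were called for ethanol immediately, 29 for mutants against wild type at 0 mM, 10 for time at 0 mM, 2 by time and 1 by genotype. The exons of 17 members are overlapped by another gene, some by a few bases only, among them act-1, act-3, mlc-2, tnc-2, unc-60, unc-87, unc-112, pat-2 and clik-1. For 14 of the 17 the other gene lies only on the opposite strand. The strand used for counting is not given in the sources used here, so reads of such neighbours cannot be told apart from those of the member. Reads that aligned to more than 1 place were dropped before counting, and part of the reads of the near-identical actin genes act-1, act-2, act-3 and act-4 and of mlc-1 and mlc-2 may be lost in this way.

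Levels per kilobase of exon differed widely between members in wild-type worms harvested immediately from 0 mM plates. The actin gene act-2 was highest at 1220.4 ± 63.4 CPM per kilobase (SD, n = 5), followed by unc-60, which encodes ADF/cofilin, at 870.0 ± 36.3 CPM per kilobase. The ranges of these genes did not overlap each other or that of the next member, the troponin C gene pat-10, at 554 ± 60.3 CPM per kilobase. Among thick filament genes the myosin light chain gene mlc-2 was highest at 509.98 ± 50.4 CPM per kilobase, while unc-54, the major body wall myosin heavy chain, was at 234.96 ± 38.1 CPM per kilobase. The β-integrin gene pat-3 was the highest of the attachment genes at 58.8 ± 2.06 CPM per kilobase. The pharyngeal myosin genes myo-2 and myo-1 were close to each other at 6.24 ± 2.04 and 6.07 ± 1.80 CPM per kilobase. The lowest member was ttn-1, a titin-like giant protein, at 1.15 ± 0.188 CPM per kilobase. Of the 44 steps between neighbours in this order, the ranges of the 5 libraries did not overlap at 6, the steps below act-2, unc-60, clik-1, act-3, dim-1 and unc-89.

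Most members varied together between libraries of the same group. When log2 CPM was taken as a deviation from the group mean, the median correlation between pairs of members was 0.776 over 30 libraries. The same median was 0.762 for genes of the fibrous organelles, which tie muscle to epidermis, and 0.757 for germ line markers. For neuron markers it was 0.576 and for genes of muscle excitation and calcium handling 0.442. Intestine markers had 0.126, other sarcomere and adhesion genes 0.125 and epidermis markers -0.00084. The points share libraries, depth and scaling, and the correlation is given as a description. The correlation of a member with the mean of the other members exceeded 0.8 for 33 of 45 members, while 2.69% of all genes exceeded 0.8 with the mean of the members. It was highest for unc-15, the paramyosin of the thick filament core, at 0.983. It was below 0 for act-2 (-0.44), unc-60 (-0.25), pat-3 (-0.10) and tmd-1 (-0.45), the tropomodulin gene that the reference names unc-94. The share of a member's transcripts that came from muscle was not measured, for these genes or for the others.

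The same 4 genes had the smallest spread within groups, with standard deviations on the log2 scale of 0.05 for unc-60, 0.07 for act-2 and tmd-1 and 0.08 for pat-3. The median standard deviation was 0.22 over the members and 0.29 over all genes. Of the 5 pharyngeal members 4 had the largest, 0.55 for myo-1 and myo-2, 0.65 for tnc-2 and 0.67 for tnt-4, while tni-4 was at 0.26, and the median correlation between pairs of the 5 was 0.942. The library numbered 3 was below its group for the mean of the members in swsn-9 mutants at 400 mM (-0.13) and 0 mM (-0.21), and in wild type harvested immediately at 400 mM (-0.29) and 0 mM (-0.30). At 6 h the library of that number was above its group, by 0.39 at 400 mM and 0.13 at 0 mM. The mean of 10 neuron markers deviated in the direction of the members in 28 of 30 libraries and the mean of 12 germ line markers in 7 of 30. Their part in the spread of the members was not tested.

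**Figure D1:**
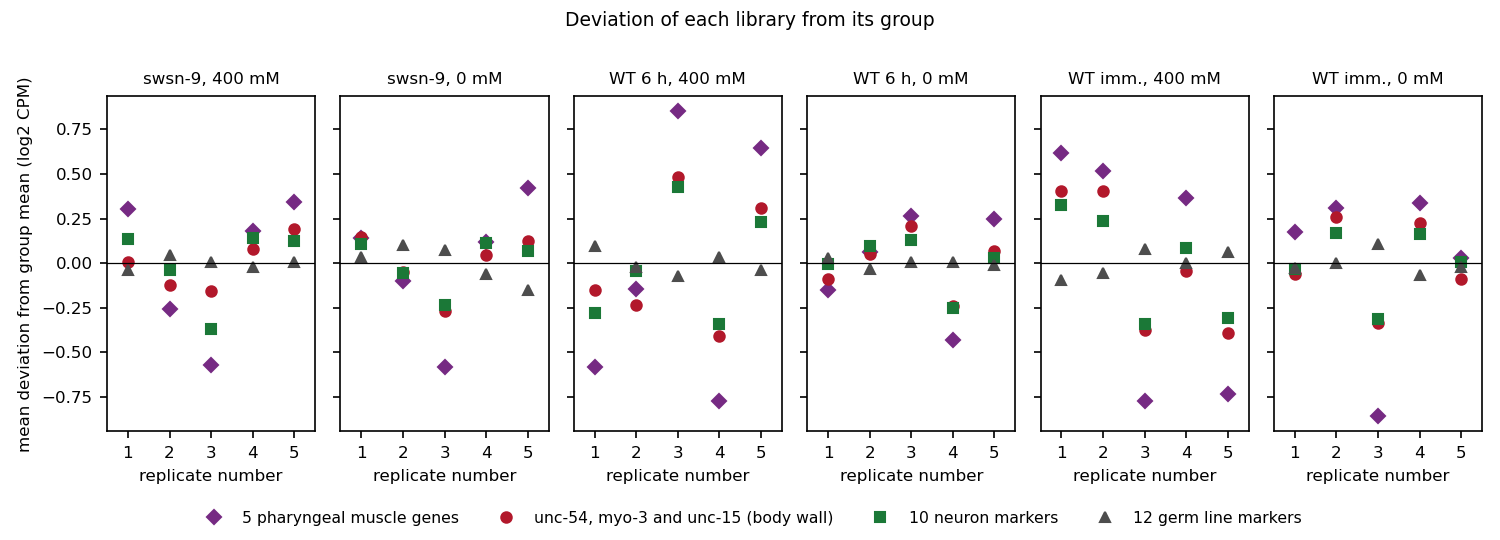
Deviation of each library from the mean of its group in log2 CPM (vertical axis) by replicate number (horizontal axis) and group (panels), averaged over 5 pharyngeal muscle genes, over the body wall genes unc-54, myo-3 and unc-15, over 10 neuron markers and over 12 germ line markers. Pharyngeal genes deviate most, reaching 0.85 in wild type at 6 h after 400 mM and -0.86 in wild type harvested immediately at 0 mM.

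The 9 comparisons ask how the muscle genes changed with ethanol in each genotype and at each time, how mutants differed from wild type, how worms at 6 h differed from those harvested immediately, and whether the ethanol response differed between times or genotypes. A gene was called when its adjusted p in edgeR's quasi-likelihood test, corrected over all genes tested by the method of Benjamini and Hochberg, was below 0.05. Fold changes are on the log2 scale with standard errors (SE). The sources used here do not say whether mutants and wild type, or worms harvested at 6 h and immediately, were collected together. A difference between collections therefore could not be separated from genotype or harvest time.

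**Figure D2:**
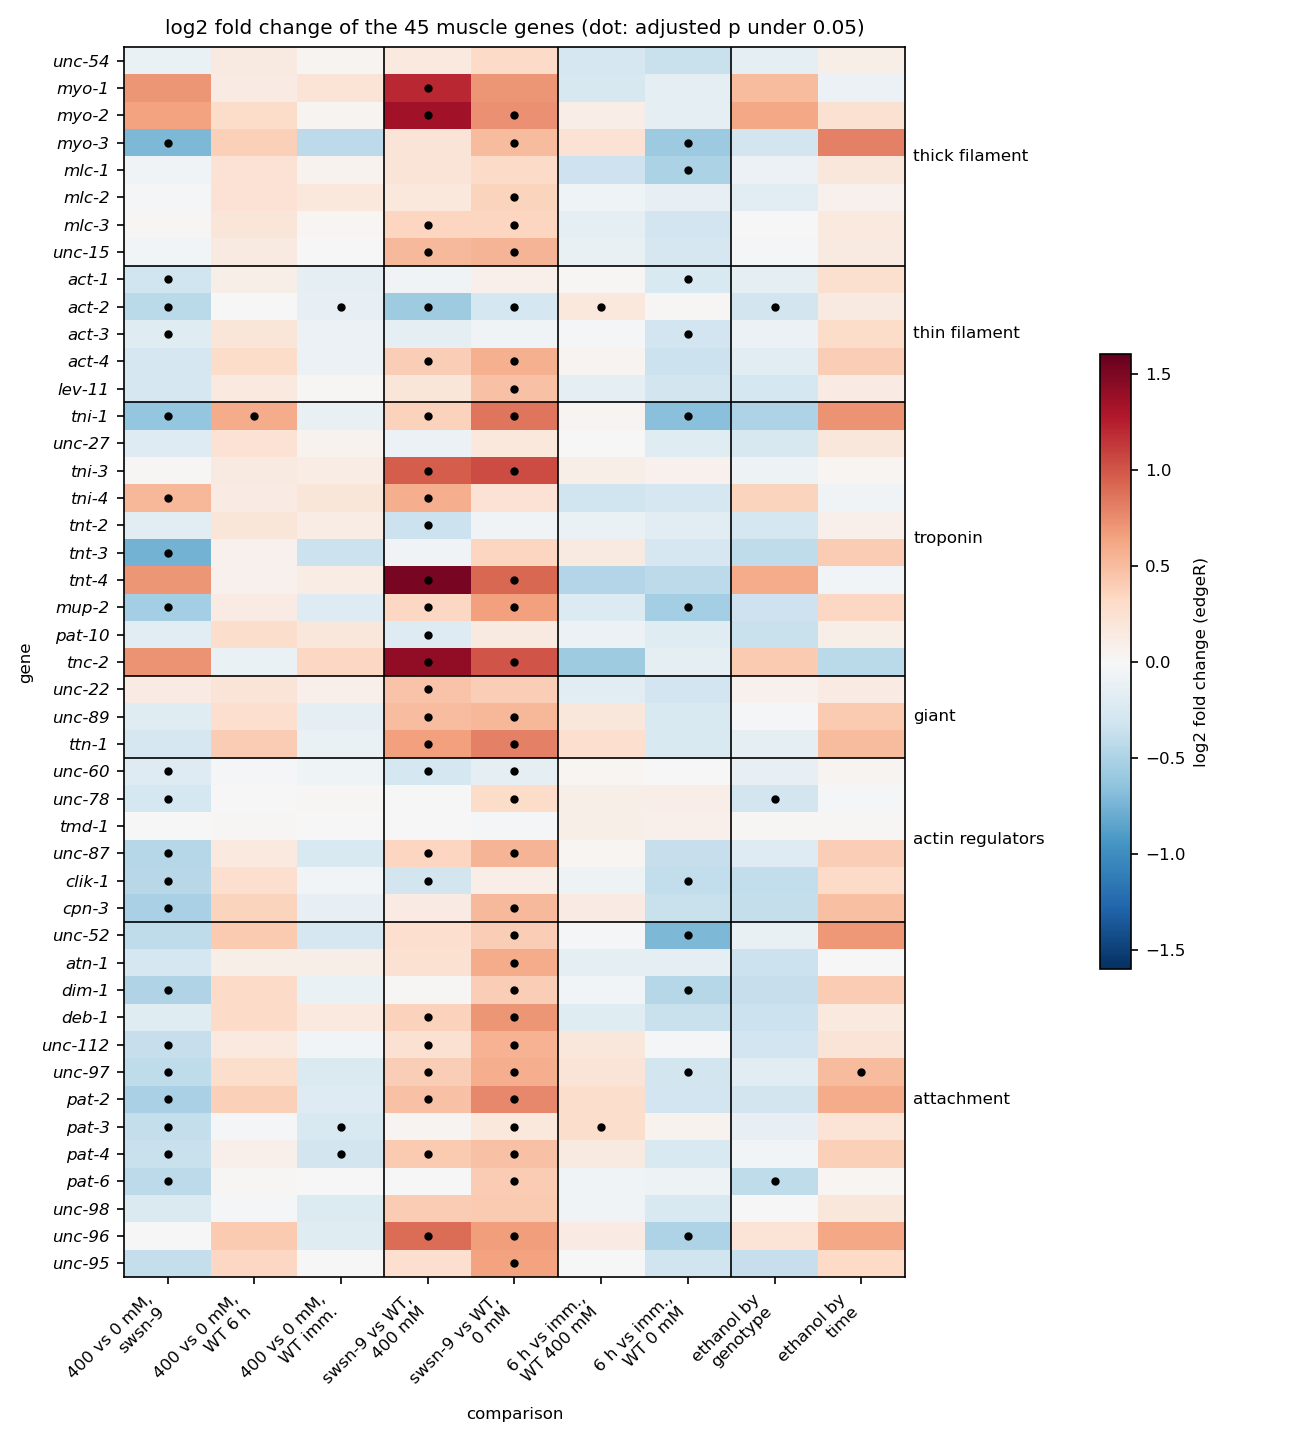
Log2 fold change (colour) of each of the 45 members (vertical axis, by role) in the 9 comparisons (horizontal axis), with a dot where the adjusted p is below 0.05. The swsn-9 comparisons hold most dots, with 29 members higher in mutants at 0 mM and 19 lower with ethanol in mutants.

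**Figure D3:**
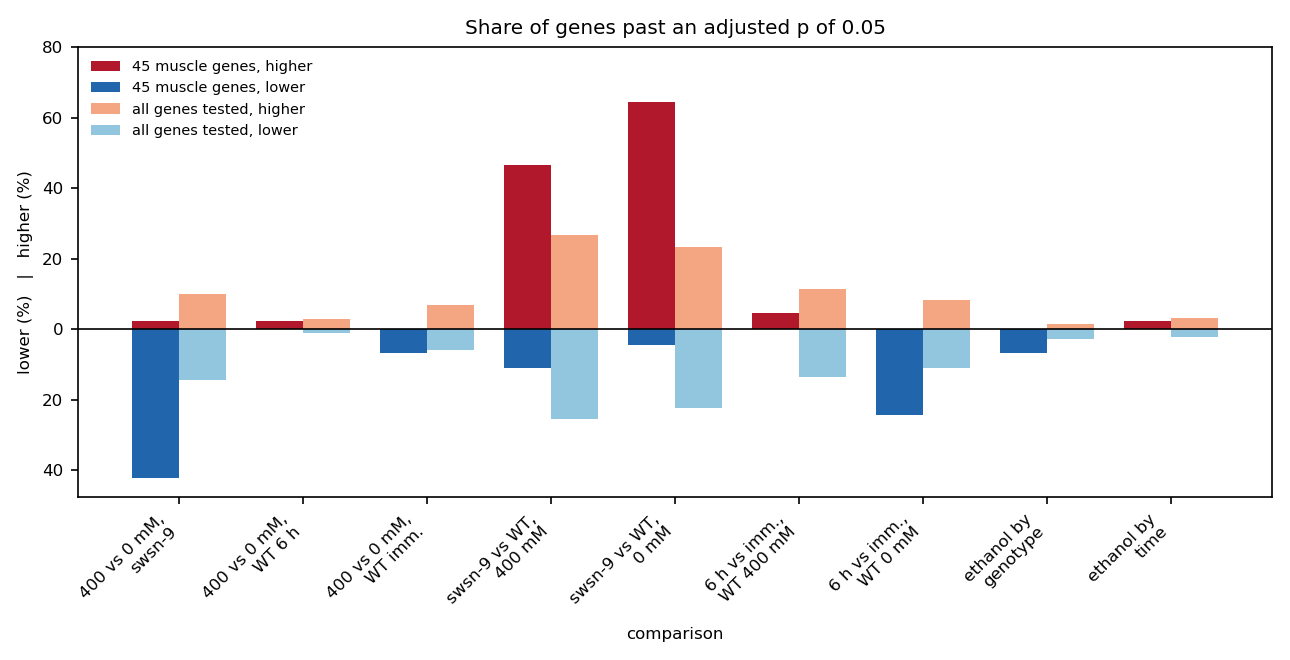
Share of genes called higher (upward bars, percent) and lower (downward bars, percent) among the 45 muscle genes (dark bars) and among all genes tested (light bars) in each comparison (horizontal axis). In mutants exposed to 400 mM against 0 mM, 42.2% of muscle genes were lower, against 14.3% of all genes.

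Wild-type worms harvested immediately after ethanol exposure showed lower transcripts of 3 members, all of small fold change, and no member was called higher. The 3 genes were pat-3 (β-integrin), pat-4 (integrin-linked kinase) and act-2, which is 6.67% of the members, while 12.8% of the 16210 genes tested were called (6.81% higher and 5.94% lower). At an unadjusted p below 0.05 there were 7 members, and DESeq2 also called 3, none of them higher. The median log2 fold change of the members was -0.04, against 0.01 for all genes. The thick filament genes had a median of 0.05 and the attachment genes one of -0.20.

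pat-3 lies on chromosome III (3908931 to 3914149, WBcel235) and encodes the β-integrin of the attachment sites. It was at 141, 150.3, 154, 124 and 132 CPM in wild type exposed to 400 mM, against 160.0, 168, 175, 163 and 171 CPM at 0 mM. Every library at 400 mM was below every library at 0 mM, and the log2 fold change was -0.25 (SE 0.05, adjusted p = 0.0020 by edgeR's quasi-likelihood test). The groups of act-2 (chromosome V, 11076777 to 11078154) did not overlap either, with 1395, 1349.9, 1470.2, 1459.9 and 1427 CPM at 400 mM against 1497, 1568, 1701, 1523 and 1528 CPM at 0 mM. Its log2 fold change was -0.13 (SE 0.04, adjusted p = 0.031 by edgeR). These were the only members whose groups did not overlap, while 4.36% of all genes were lower and 4.7% higher without overlap.

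The groups of pat-4 overlapped, with 20.9, 22.95, 17.8, 17.9 and 16.03 CPM at 400 mM against 23.2, 23.96, 24.01, 26.6 and 19.8 CPM at 0 mM (log2 fold change -0.30, SE 0.09, edgeR adjusted p = 0.041). Only pat-3 was called in every fit that left out a single library. pat-4 was lost without replicate 1, 2, 3 or 4 at 0 mM or replicate 3, 4 or 5 at 400 mM (adjusted p 0.063 to 0.14). act-2 was lost without replicate 2 or 3 at 0 mM or replicate 1, 2 or 5 at 400 mM (adjusted p 0.056 to 0.10). A single member was then left without replicate 2 or 3 at 0 mM or without replicate 5 at 400 mM.

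Among body wall filament genes, myo-3, the minor myosin heavy chain of the thick filament centre, had the largest decrease in estimate, at -0.42 (SE 0.18, edgeR adjusted p = 0.12), which was not called. unc-54 was at 1913, 1978, 1075, 1397 and 1102 CPM in wild type at 400 mM against 1391, 1693, 1153, 1702 and 1349 CPM at 0 mM, so that the 5 exposed libraries spanned the unexposed ones on both sides. The pharyngeal members all had positive estimates, from 0.05 to 0.33, and none of the 5 was called by edgeR or DESeq2 or had an unadjusted p below 0.05.

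At 6 h after removal, the troponin I gene tni-1 was higher in worms that had been exposed to ethanol, and it was the single member called. This was 2.22% of the members, against 3.94% of all genes (2.78% higher and 1.16% lower). DESeq2 called 2 members, both higher, and 12 had an unadjusted p below 0.05 in edgeR. The median log2 fold change was 0.19 over the members and 0.02 over all genes, with medians of 0.28 for the attachment genes and 0.21 for the thick filament genes.

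tni-1 (chromosome X, 11375887 to 11377470) encodes a troponin I of body wall muscle. It was at 13.2, 13.97, 17.3, 15.8 and 19.4 CPM at 6 h after 400 mM, against 10.5, 10.03, 11.4, 9.28 and 11.99 CPM at 6 h after 0 mM. The groups did not overlap, and the log2 fold change was 0.60 (SE 0.15, edgeR adjusted p = 0.026). The unexposed libraries at 6 h are also the low group for tni-1 when 6 h is compared with immediate harvest at 0 mM. The exposed libraries at 6 h lay within the range of wild type harvested immediately at 0 mM. The perlecan gene unc-52 also did not overlap, at 156 to 231 CPM after 400 mM against 118 to 155 CPM after 0 mM, but was not called (0.42, SE 0.17, edgeR adjusted p = 0.18). Among all genes 3.61% were higher and 2.88% lower without overlap. The call of tni-1 was lost without replicate 1, 2 or 4 at 0 mM or replicate 3 or 5 at 400 mM (adjusted p 0.059 to 0.096), when no member was called, and without replicate 1 at 400 mM the count was 2.

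The test of whether the ethanol response differed between 6 h and immediate harvest called a single member, unc-97, against 5.28% of all genes (3.1% higher and 2.18% lower at 6 h). unc-97 (chromosome X, 5593133 to 5594965) encodes PINCH, the adaptor that joins integrin-linked kinase to other attachment proteins. At 6 h it was at 27.2, 32.3, 34.9, 29.1 and 32.5 CPM after 400 mM against 21.9, 28.4, 26.3, 26.1 and 26.8 CPM after 0 mM. Immediately it was at 27.6, 32.5, 25.1, 27.5 and 23.03 CPM at 400 mM against 32.9, 32.3, 31.6, 33.5 and 28.9 CPM at 0 mM.

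For unc-97 the log2 fold change with ethanol was 0.28 (SE 0.08) at 6 h and -0.23 (SE 0.09) immediately, neither of which was called alone, and the difference of these fold changes was 0.50 (SE 0.12, edgeR adjusted p = 0.013). The median of this difference was 0.19 over the members and 0.00 over all genes. Taking the replicate number as a block, 17 members were called, all more positive at 6 h, against 9.72% of all genes. Next after unc-97 were tni-1 at 0.71 (SE 0.21, edgeR adjusted p = 0.053) and myo-3 at 0.81 (SE 0.25, edgeR adjusted p = 0.060). The count of 1 became 3 without N2 0 mM replicate 3, 2 without replicate 5 of that group, and 4, 6 and 2 without N2 400 mM replicates 1, 2 and 3. It became 2 without replicate 1, 2 or 4 of the wild type harvested 6 h after 400 mM, and no member was called without the number 3 in every group.

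In wild type the calls among related sarcomere and attachment genes and among germ line, neuron and intestine markers were as follows, with other lists described at the end. Of 21 other sarcomere and adhesion genes 3 were lower immediately after ethanol, hsp-90 (-0.24), pkn-1 (-0.23) and unc-82 (-0.55), and at 6 h the chaperone-related gene unc-23 was higher (0.42) and scpl-1 lower (-0.20). Of 9 genes of the fibrous organelles, which tie muscle to epidermis and cuticle, mua-6 was lower immediately (-0.48), and at 6 h ifb-1 (0.49), let-805 (0.56) and mua-6 (0.52) were higher. The ethanol response of 4 of these 9 genes and of 3 of the 21 differed between the times, all more positive at 6 h. Of 12 germ line markers 1 was lower at 6 h after ethanol and none was called immediately, where 3 had an unadjusted p below 0.05 and DESeq2 called 1. No neuron marker was called at either time by edgeR or DESeq2, and 1 had an unadjusted p below 0.05 at each. Of 8 intestine markers 3 were higher at 6 h after ethanol, ges-1 (0.43), elt-2 (0.59) and vit-2 (0.23), with sums of 68079 to 81090.1 CPM against 62607 to 67730.2 CPM, and 2 were higher immediately, ges-1 (0.57) and mtl-2 (0.97), with sums of 58859 to 74348 CPM against 63995 to 71233 CPM. The part of these shifts in the muscle values was not tested.

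In swsn-9 mutants ethanol exposure lowered 19 of the 45 members and raised 1. This was 44.4% of the members, against 24.3% of the 16934 genes tested (10.1% higher and 14.3% lower). The lowered genes were 7 of 13 attachment genes, 5 of 6 actin regulators, 3 of 5 thin filament genes, 3 of 10 troponin genes and 1 of 8 thick filament genes. The median log2 fold change was -0.27 over the members and -0.01 over all genes. With the replicate number as a block, 33 members were called (5 higher, 28 lower), against 30.2% of all genes. Of the members, 20 were lower in every exposed library than in every unexposed library, against 9.01% of all genes, and none were higher, against 7.91% of all genes.

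Among thin filament genes, act-2 was at 879, 973, 1028, 926 and 964 CPM in mutants at 400 mM, against 1347, 1368, 1335, 1203 and 1166 CPM in mutants at 0 mM. The groups were well apart, with a log2 fold change of -0.43 (SE 0.05, edgeR adjusted p = 2.5e-08). act-1 (-0.31, SE 0.07) and act-3 (-0.19, SE 0.07) were also called, while act-4 (-0.27, SE 0.12) and the tropomyosin gene lev-11 (-0.27, SE 0.12) were not, both with an edgeR adjusted p of 0.11. Of the actin regulators, unc-60 was at 459.8, 488, 509.6, 484 and 487 CPM at 400 mM against 544, 584, 593, 549 and 536 CPM at 0 mM (-0.21, SE 0.04, edgeR adjusted p = 7.5e-05). unc-60 encodes ADF/cofilin, which severs actin filaments, and its small change stood out from a spread of a few percent.

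The calponin-like genes unc-87 (-0.46, SE 0.12) and clik-1 (-0.45, SE 0.12), the calponin gene cpn-3 (-0.52, SE 0.12) and unc-78 (-0.28, SE 0.06), whose product AIP1 works with cofilin, were lower as well. The exception among the 6 actin regulators was tmd-1, at 0.01 (SE 0.05).

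Integrin and its partners fell together in the mutants. pat-3 was at 137, 139.8, 148, 145 and 151 CPM at 400 mM against 184, 196, 199.8, 192 and 171 CPM at 0 mM, a log2 fold change of -0.39 (SE 0.05, edgeR adjusted p = 7.2e-07). unc-97 was at 32.3, 34.1, 38.1, 38.4 and 35.5 CPM at 400 mM against 49.5, 45.3, 46.8, 46.6 and 49.2 CPM at 0 mM (-0.41, SE 0.07, edgeR adjusted p = 0.00013). For both genes every exposed library lay below every unexposed library. The α-integrin gene pat-2 (-0.52, SE 0.14), pat-4 (-0.35, SE 0.08), the parvin gene pat-6 (-0.42, SE 0.08), the kindlin gene unc-112 (-0.37, SE 0.07) and the immunoglobulin protein gene dim-1 (-0.48, SE 0.13) were called in the same direction.

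The other 6 attachment genes were not called: the estimates were -0.40 for unc-52, -0.38 for unc-95, -0.27 for the α-actinin gene atn-1, -0.24 for unc-98, -0.19 for the vinculin gene deb-1 and 0.00 for unc-96. In thick filaments myo-3 was the single gene called, at -0.72 (SE 0.16, edgeR adjusted p = 0.0012), with 65.3, 63.1, 68.6, 77.02 and 85.3 CPM at 400 mM against 127, 108, 102, 117 and 139 CPM at 0 mM. unc-54, its partner in the same filaments, was at 1401 to 1910 CPM at 400 mM against 1420 to 2044 CPM at 0 mM (-0.11, SE 0.16, edgeR adjusted p = 0.64).

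Of the 10 troponin genes 3 were called lower and 1 higher. The body wall troponin genes tnt-3 (-0.75, SE 0.15), tni-1 (-0.62, SE 0.15) and mup-2 (-0.54, SE 0.12) were lower with ethanol. tni-4, a pharyngeal troponin I, was the single member called higher, at 36.5, 29.4, 24.5, 33.2 and 39.7 CPM at 400 mM against 23.2, 20.5, 16.4, 24.5 and 28.3 CPM at 0 mM (0.53, SE 0.14, edgeR adjusted p = 0.0072). Its groups overlapped. The other pharyngeal members had estimates of 0.71 for myo-1, 0.65 for myo-2, 0.70 for tnt-4 and 0.72 for tnc-2, with edgeR adjusted p-values of 0.065, 0.095, 0.12 and 0.12. Each of the 5 had an unadjusted p below 0.05. The other troponin genes were not called, with estimates of -0.21 for unc-27, -0.18 for pat-10, -0.17 for tnt-2 and 0.02 for tni-3.

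**Figure D4:**
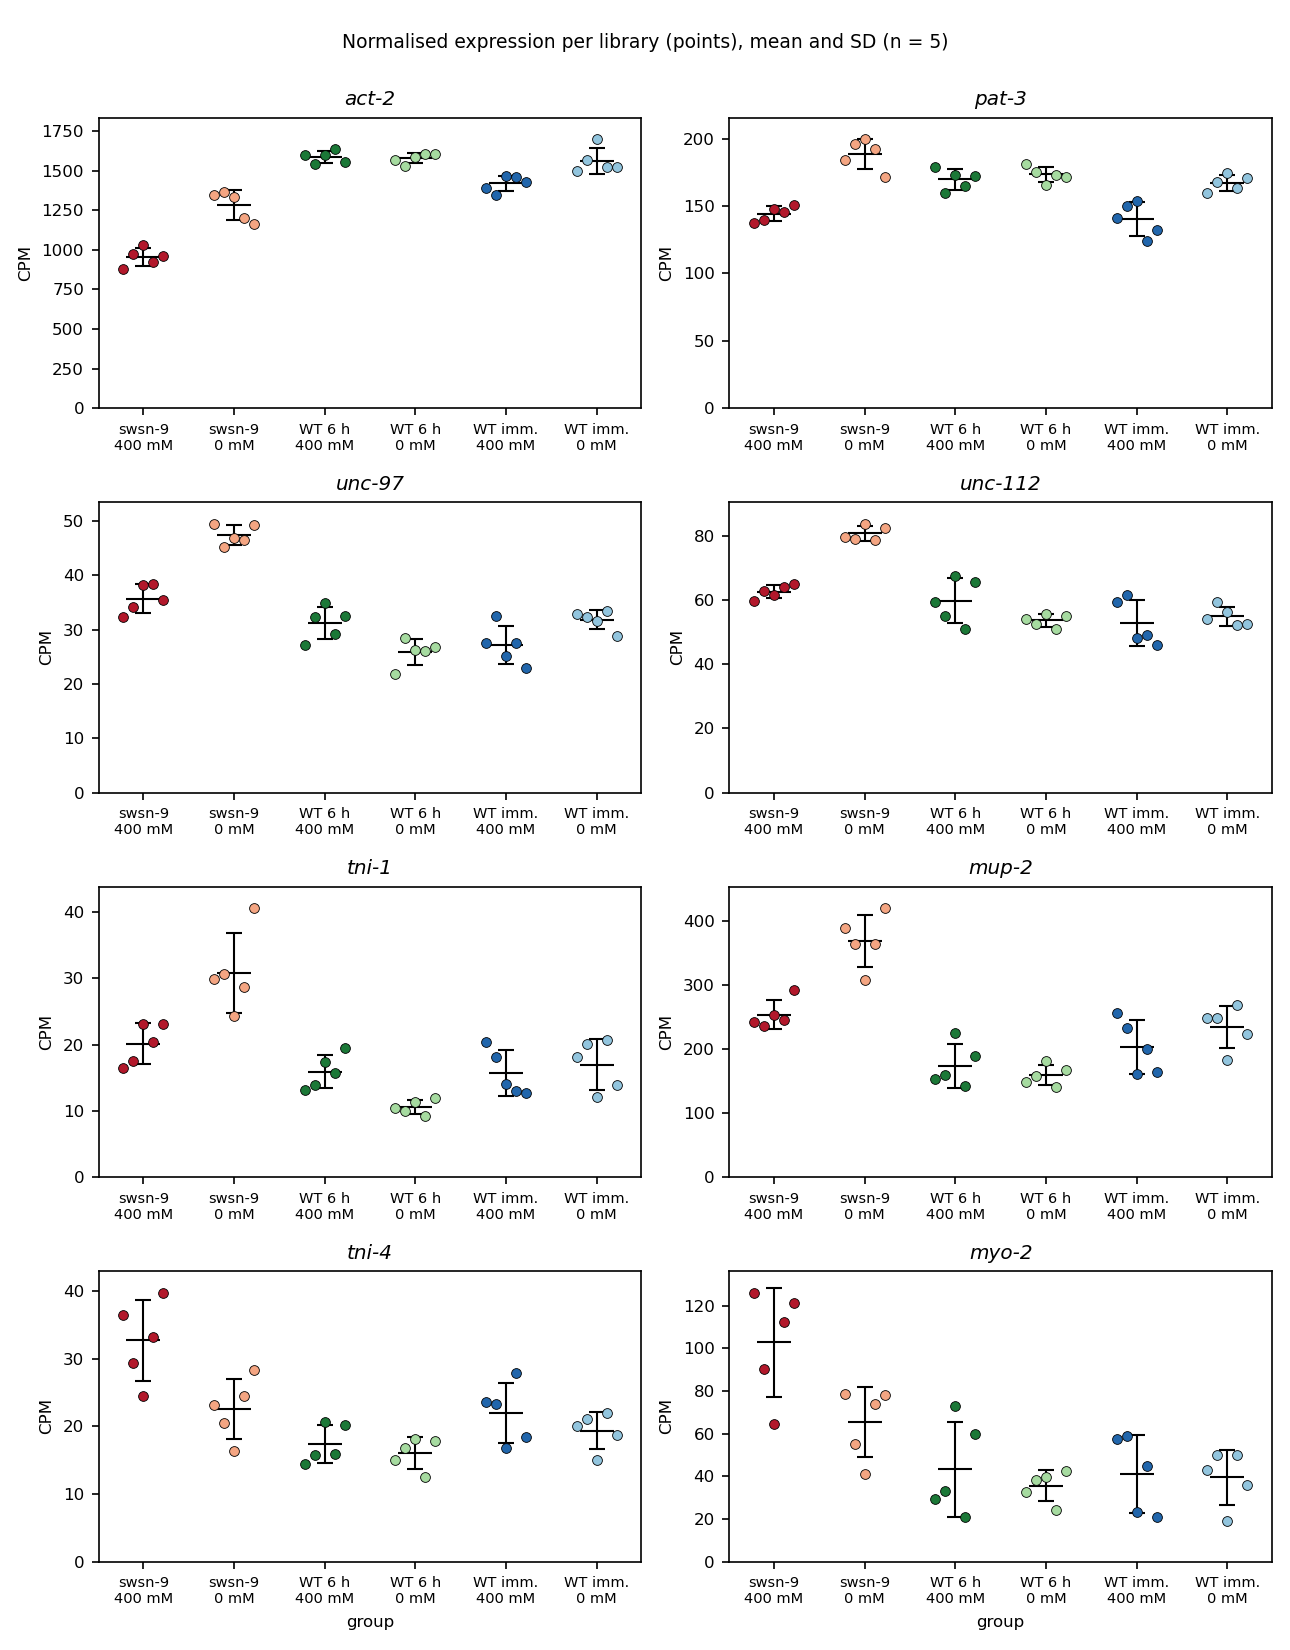
CPM in each library (points, ordered by replicate number), with group mean and SD (bars, n = 5), for 8 members, vertical axes starting at 0, in the 6 groups (horizontal axis). act-2, pat-3, unc-97, unc-112, tni-1 and mup-2 lie lower in swsn-9 mutants at 400 mM than at 0 mM, while tni-4 lies higher and myo-2 has a higher mean.

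The number of members called between exposed and unexposed mutants ran from 19 to 24 when single libraries were left out. Markers of other tissues moved as follows in the same comparison. Of 12 germ line markers 3 were lower, with sums of 8817 to 9246 CPM at 400 mM against 8657 to 10443 CPM at 0 mM. Of 10 neuron markers 2 were higher, with sums of 371 to 458 CPM against 336 to 384 CPM. No germ line or neuron marker was at 0 in any library. Of 8 intestine markers 5 were higher, with sums of 61669 to 77473 CPM against 52964 to 76411 CPM. The part of these shifts in the change of the muscle genes was not tested.

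Genes that work beside the members moved in part with them. All 9 fibrous organelle genes were lower with ethanol in mutants, with the smallest p-value for the intermediate filament gene mua-6 (-0.96, SE 0.13, edgeR adjusted p = 3.6e-06) and the largest change for ifa-3, another such gene (-1.33, SE 0.29). Of 21 other sarcomere and adhesion genes 11 were lower and 1 higher. The smallest p-values were those of hsp-90 (-0.45, SE 0.06) and unc-45 (-0.18, SE 0.04), both chaperones for myosin folding, and the largest decrease was that of ketn-1, which encodes kettin (-0.58, SE 0.17). Of 15 genes of muscle excitation and calcium handling, 1 was lower, the acetylcholine receptor subunit gene lev-1 (-0.69, SE 0.21), and 1 higher, the inositol trisphosphate receptor gene itr-1 (0.36, SE 0.11).

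Tested directly, the ethanol response of swsn-9 mutants differed from that of wild type for 3 members, all with a more negative fold change in mutants. This was 6.67% of the members, against 4.15% of all genes (1.4% higher and 2.75% lower). They were act-2 at -0.29 (SE 0.06, edgeR adjusted p = 0.0063), pat-6 at -0.40 (SE 0.11, edgeR adjusted p = 0.030) and unc-78 at -0.30 (SE 0.09, edgeR adjusted p = 0.045). The median over the members was -0.17 and over all genes -0.01. With the replicate number as a block, 13 members were called (2 more positive, 11 more negative in mutants), against 6.91% of all genes.

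pat-6 (chromosome IV, 261886 to 264232) was at 24.1, 24.3, 22.6, 26.4 and 26.8 CPM in mutants at 400 mM against 32.3, 36.1, 33.5, 30.8 and 33.5 CPM in mutants at 0 mM. In wild type it was at 27.99, 27.2, 24.1, 23.3 and 22.2 CPM at 400 mM against 27.6, 25.5, 24.01, 26.4 and 22.2 CPM at 0 mM. The mutant groups lay apart and the wild-type groups coincided. unc-78 had the same form, at 27.5, 29.5, 29.3, 30.9 and 30.5 CPM in mutants at 400 mM against 38.2, 36.8, 34.3, 38.7 and 31.6 CPM at 0 mM, and at 27.2 to 32.4 CPM in wild type at 400 mM against 27.7 to 31.6 CPM at 0 mM. For pat-6 the mutants at 400 mM lay within the wild-type range at each dose, and the mutants at 0 mM lay above it.

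The pharyngeal members had positive differences of 0.35 to 0.61, none of which was called by edgeR or DESeq2 or had an unadjusted p below 0.05. The call of act-2 held without any single library. That of pat-6 was lost without N2 0 mM replicate 5 or N2 400 mM replicate 2 (adjusted p 0.068 and 0.053). That of unc-78 was lost without replicate 3, 4 or 5 of N2 at 0 mM, replicate 2 or 4 of N2 at 400 mM or replicate 4 of the mutants at 0 mM (adjusted p 0.062 to 0.087). The count was 1 without N2 0 mM replicate 5 or N2 400 mM replicate 2. It was 5 without N2 400 mM replicate 3, without mutant 0 mM replicate 1, 3 or 5, or without mutant 400 mM replicate 3 or 5.

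Without ethanol, 29 members were higher in swsn-9 mutants than in wild type and 2 were lower. This was 68.9% of the members, in a comparison where 45.5% of all genes were called (23.2% higher and 22.3% lower). The median log2 fold change was 0.47 over the members and 0.06 over all genes. Higher were 12 of 13 attachment genes, 5 of 8 thick filament genes, 5 of 10 troponin genes, 3 of 6 actin regulators, 2 of 5 thin filament genes and 2 of 3 giant proteins. Of the members, 21 were higher in every mutant library than in every wild-type library, against 15.2% of all genes, and 1 was lower, against 15% of all genes. The same mutant libraries at 0 mM are the unexposed group of the ethanol comparison in mutants. They also enter the test of the ethanol response by genotype, so these results are not independent.

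Attachment genes had the largest share of members called higher, and the troponin genes tni-3 and tnc-2 the largest fold changes. unc-112 (chromosome V, 14691855 to 14696654), the kindlin that recruits integrin-linked kinase, was at 79.7, 79.1, 83.9, 78.8 and 82.5 CPM in mutants against 54.3, 59.3, 56.3, 52.3 and 52.5 CPM in wild type. The log2 fold change was 0.56 (SE 0.07, edgeR adjusted p = 1.3e-07). unc-97 was at 49.5, 45.3, 46.8, 46.6 and 49.2 CPM in mutants against 32.9, 32.3, 31.6, 33.5 and 28.9 CPM in wild type (0.58, SE 0.08, edgeR adjusted p = 3.8e-07). Both sets of groups were separated by more than the range within either group.

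The vinculin gene deb-1 (chromosome IV, 7085215 to 7094266) was at 86.4, 78.3, 78.9, 85.02 and 93.1 CPM in mutants against 48.9, 55.4, 39.9, 59.5 and 53.7 CPM in wild type (0.71, SE 0.12, edgeR adjusted p = 1.7e-05). The largest estimate among attachment genes was that of pat-2 at 0.76 (SE 0.14) and the smallest that of pat-3 at 0.17 (SE 0.05), and unc-98 at 0.42 (SE 0.18, edgeR adjusted p = 0.059) was the one attachment gene not called. Among troponins, tni-1 was at 29.9, 30.7, 24.3, 28.7 and 40.6 CPM in mutants against 18.1, 20.1, 12.2, 20.7 and 13.8 CPM in wild type (0.86, SE 0.15, edgeR adjusted p = 2.3e-05). tni-3, another troponin I, was at 1.05 (SE 0.19), mup-2, a body wall troponin T, at 0.66 (SE 0.12) and the pharyngeal tnc-2 at 1.01 (SE 0.36).

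act-2 and unc-60 went the other way. act-2 was at 1347, 1368, 1335, 1203 and 1166 CPM in mutants against 1497, 1568, 1701, 1523 and 1528 CPM in wild type (-0.28, SE 0.05, edgeR adjusted p = 6.5e-06). unc-60 was at 544, 584, 593, 549 and 536 CPM in mutants against 629.9, 644, 652, 592 and 601 CPM in wild type (-0.15, SE 0.04, edgeR adjusted p = 0.00087). The groups of act-2 did not overlap and those of unc-60 overlapped by a single mutant library. The actin gene act-4 was higher in mutants (0.56, SE 0.12), while act-1 (0.08, SE 0.07) and act-3 (-0.06, SE 0.07) were not called.

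With ethanol, 21 members were higher in mutants than in wild type and 5 were lower. This was 57.8% of the members, against 52.4% of all genes (26.8% higher and 25.6% lower), a share near that of all genes. The median log2 fold change was 0.27 over the members and 0.14 over all genes. With DESeq2 in place of edgeR the split was 23 higher and 3 lower. Without overlap, 7 members were higher and 2 lower, against 17.2% and 19.2% of all genes.

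All 5 pharyngeal members were called higher in exposed mutants, with log2 fold changes of 1.52 for the troponin T gene tnt-4 (SE 0.35), 1.42 for the troponin C gene tnc-2 (SE 0.35), 1.34 for myo-2 (SE 0.29), 1.20 for myo-1 (SE 0.29) and 0.58 for tni-4 (SE 0.14). Their edgeR adjusted p-values ran from 0.00033 to 0.0013. myo-2, the pharyngeal myosin heavy chain, shown for this set and picked after its values were seen, was at 126, 90.2, 64.4, 112.5 and 121 CPM in mutants at 400 mM against 57.6, 58.8, 23.3, 44.9 and 20.999 CPM in wild type at 400 mM. The groups did not overlap, although the library numbered 3 was the lowest of the mutants. At 0 mM 3 of the 5 were higher in mutants, myo-2 at 0.73 (SE 0.30), tnt-4 at 0.92 (SE 0.36) and tnc-2 at 1.01 (SE 0.36).

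Among the other members unc-96, an M-line protein, was at 15.99, 13.5, 12.7, 17.4 and 16.1 CPM in mutants at 400 mM against 10.4, 9.80, 6.34, 8.39 and 6.34 CPM in wild type at 400 mM (0.89, SE 0.14, edgeR adjusted p = 4.8e-06). tni-3 was at 54.8, 45.5, 39.1, 53.2 and 52.1 CPM in mutants against 29.8, 33.5, 17.9, 27.5 and 17.7 CPM in wild type (0.97, SE 0.19, edgeR adjusted p = 9.0e-05). For both genes the lowest mutant library was above the highest wild-type library.

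pat-4 was at 24.4, 24.3, 24.3, 28.99 and 25.6 CPM in mutants against 20.9, 22.95, 17.8, 17.9 and 16.03 CPM in wild type (0.42, SE 0.09, edgeR adjusted p = 0.00016), again without overlap. unc-97 was higher by 0.40 (SE 0.08, edgeR adjusted p = 6.6e-05). The 3 giant proteins twitchin (unc-22, 0.46, SE 0.18), obscurin (unc-89, 0.50, SE 0.17) and titin (ttn-1, 0.65, SE 0.22) were all called higher.

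Lower in exposed mutants were act-2, unc-60, the troponin T gene tnt-2, clik-1 and pat-10. act-2 had the largest change, 879, 973, 1028, 926 and 964 CPM in mutants against 1395, 1349.9, 1470.2, 1459.9 and 1427 CPM in wild type (-0.57, SE 0.05, edgeR adjusted p = 1.7e-11), and unc-60 fell by 0.28 (SE 0.04, edgeR adjusted p = 1.8e-07). Neither overlapped. tnt-2 was at 354, 355, 347, 361 and 369 CPM in mutants against 546, 509, 348, 485 and 371 CPM in wild type (-0.34, SE 0.11, edgeR adjusted p = 0.013), where the wild-type libraries 3 and 5, the lowest of their group, lay close to the mutants.

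clik-1 was at 198, 199.8, 214, 221 and 228 CPM in mutants against 311, 319, 205, 262 and 204 CPM in wild type (-0.29, SE 0.12, edgeR adjusted p = 0.043), and pat-10 was at -0.21 (SE 0.09, edgeR adjusted p = 0.049). The same wild-type libraries, 3 and 5, lay within the mutant range for clik-1. The clik-1 call was lost without N2 400 mM replicate 1, 2 or 4 or mutant 400 mM replicate 1, 2 or 3 (adjusted p 0.051 to 0.16), and with DESeq2 (adjusted p = 0.084). When single libraries were left out, 14 to 25 members were higher and 3 to 6 lower at 400 mM, and 3 were lower without N2 400 mM replicate 1 or 2 or mutant 400 mM replicate 1, 2 or 3.

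Markers of other tissues also differed between mutants and wild type. All 12 germ line markers were lower in mutants at both doses, with sums of 8817 to 9246 CPM against 11659 to 13068 CPM at 400 mM and 8657 to 10443 CPM against 12162 to 13871 CPM at 0 mM. Of 10 neuron markers 8 were higher at 400 mM (sums of 371 to 458 CPM against 258 to 313 CPM) and 9 at 0 mM (336 to 384 CPM against 262 to 288 CPM). Of 8 intestine markers 5 were higher and 1 lower at 400 mM (61669 to 77473 CPM against 58859 to 74348 CPM), and 2 were higher at 0 mM (52964 to 76411 CPM against 63995 to 71233 CPM). Of 7 epidermis markers 3 cuticle collagen genes were higher at each dose and 4 were not called. Of the 3 genes, sqt-3 was at 35.9 to 83.5 CPM in mutants against 1.43 to 2.70 CPM in wild type at 400 mM (4.82, SE 0.31). At 0 mM sqt-3 was at 107 to 196 CPM against 1.77 to 6.67 CPM (4.95, SE 0.28). The counts of dpy-7 were 85 to 142 in mutants against 0 to 2 in wild type at 400 mM and 190 to 396 against 0 to 4 at 0 mM, and those of rol-6 were 1 to 42 against 0 to 1 and 0 to 47 against 0 to 4. The part of these differences in the levels of the muscle genes was not tested.

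Other genes of muscle were higher in mutants as well. Of 6 transcription factor genes of muscle, 6 were higher at 400 mM and 5 at 0 mM, including unc-120, a serum response factor of body wall muscle (1.12, SE 0.17 at 400 mM and 1.41, SE 0.17 at 0 mM), and pha-4, the factor that specifies the pharynx (1.57, SE 0.17 and 1.27, SE 0.16). Of 15 excitation and calcium genes 10 were higher at each dose, among them egl-19, the voltage-gated calcium channel of muscle (0.76, SE 0.14 at 400 mM and 0.82, SE 0.14 at 0 mM). Of 21 other sarcomere and adhesion genes 12 were higher and 3 lower at 400 mM, and 16 were higher and 1 lower at 0 mM. Of 9 fibrous organelle genes 5 were higher at 400 mM and all 9 at 0 mM, with the largest change for ifa-3, at 2.19 to 6.42 CPM in mutants against 0.0507 to 0.429 CPM in wild type at 400 mM (4.43, SE 0.44) and 7.53 to 11.3 CPM against 0.161 to 0.392 CPM at 0 mM (5.15, SE 0.41).

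Worms harvested at 6 h were also 6 h older than those harvested immediately, so that time off the plates and age cannot be told apart. Without ethanol, 11 members were lower at 6 h and none were higher, which is 24.4% of the members, against 19.1% of all genes (8.19% higher and 10.9% lower). DESeq2 also called 11, all lower, and 19 members had an unadjusted p below 0.05. The median log2 fold change was -0.27 over the members and -0.03 over all genes. Of the members, 7 were lower at 6 h without overlap, against 6.57% of all genes, and none were higher, against 5.61% of all genes.

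tni-1 was at 10.5, 10.03, 11.4, 9.28 and 11.99 CPM at 6 h against 18.1, 20.1, 12.2, 20.7 and 13.8 CPM immediately (-0.67, SE 0.15, edgeR adjusted p = 0.0043). mup-2 (chromosome X, 6408471 to 6410227) was at 148, 158, 181, 141 and 168 CPM at 6 h against 247, 249, 183, 268 and 223 CPM immediately (-0.55, SE 0.13, edgeR adjusted p = 0.0050). The groups were apart for both, with replicate 3 of the immediate harvest, low for most members, closest to the later worms. This comparison shares the unexposed libraries at 6 h with the ethanol comparison at that time, where tni-1 was called.

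unc-52 (chromosome II, 14647321 to 14684456) was at 131, 142, 153, 118 and 155 CPM at 6 h against 221, 278, 168, 273 and 211 CPM immediately (-0.71, SE 0.17, edgeR adjusted p = 0.0061). act-3 was at 128, 132, 141, 125 and 133 CPM at 6 h against 164, 176, 152, 172 and 154 CPM immediately (-0.30, SE 0.07, edgeR adjusted p = 0.0060). Neither overlapped. myo-3, mlc-1, act-1, clik-1, unc-97, dim-1 and unc-96 were the other members called. The count was 6 without N2 0 mM replicate 2 and 5 without replicate 4 of that group. It was 6 without replicate 1 or 4 of the worms at 6 h, and 22 without the number 3 in every wild-type group. Of the germ line markers 6 were higher and 2 lower at 6 h, with sums of 13377 to 13981 CPM against 12162 to 13871 CPM, and no neuron marker was called by edgeR or DESeq2, while 3 had an unadjusted p below 0.05. Of the intestine markers 2 were lower, with sums of 62607 to 67730.2 CPM against 63995 to 71233 CPM. Their part in the lower muscle values was not tested.

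With ethanol, 2 members were higher at 6 h than immediately and none were lower, which is 4.44% of the members, against 25% of all genes (11.3% higher and 13.7% lower). DESeq2 called 2 as well, both higher, and 6 members had an unadjusted p below 0.05. pat-3 was at 179, 159.6, 173, 165 and 172 CPM at 6 h against 141, 150.3, 154, 124 and 132 CPM immediately (0.28, SE 0.05, edgeR adjusted p = 0.00029). act-2 was at 1600.0, 1542, 1601, 1641 and 1558 CPM at 6 h against 1395, 1349.9, 1470.2, 1459.9 and 1427 CPM immediately (0.17, SE 0.04, edgeR adjusted p = 0.0032). Both were above the earlier worms in every library, while 6.48% of all genes were higher and 9.68% lower without overlap.

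These are the members of small spread that were also lower with ethanol immediately after exposure, a comparison that shares the exposed libraries. The members' median was -0.01 and that of all genes 0.00. The count became 4 without N2 400 mM replicate 2, 3 or 5 or without replicate 3 of the worms at 6 h after 400 mM. Without the number 3 in every wild-type group it was 13, of which 2 were higher and 11 lower.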

How the data were processed

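RNA-seq of whole worms was analysed from the counts per gene that the authors deposited, which STAR 2.6.0a made after FastQC from paired-end reads, keeping reads with 1 alignment. The annotation release is not given in the sources used here, the study's methods write the assembly as WBcel325, and 46484 of the 46739 gene IDs are in the WBcel235 annotation used for coordinates. The 5 replicates per group were collected on different days. Genes with a mean count of at least 1 were tested with edgeR 4.0.16 (TMM scaling, quasi-likelihood test, Benjamini-Hochberg, threshold 0.05, no fold threshold) in R 4.3.3. Wild-type contrasts were fitted on 20 libraries, all others on 30. The fit was checked on simulated counts for ethanol immediately in wild type and for ethanol in mutants, and not for the other comparisons. Alternatives were DESeq2 1.42.0, RLE scaling, no filter, other sets of libraries, a replicate block and each library left out. Values per library are given for members among the 4 smallest p-values in either direction of a contrast (all up to 6 for interactions), and other members that illustrate a group were added after their values were seen. Members, lists of related genes and markers (germ line, sperm, intestine, epidermis, neurons) were chosen with earlier results of these data known. Level per kilobase used the union of exons.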

Additional observations from a re-analysis of the deposited data

Results flagged for a closer look

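In groups of 5 libraries, a single library of 3 members lay far from the other 4. The integrin-linked kinase gene pat-4 was at 28.99 CPM in mutants at 400 mM, replicate 4, while the next library was at 25.6 CPM and the farthest at 24.3 CPM. The troponin T gene mup-2 was at 292 CPM in mutants at 400 mM, replicate 5, while the next was at 252 CPM and the farthest at 236 CPM. The calponin-like gene clik-1 was at 260.1 CPM in mutants at 0 mM, replicate 3, below the next at 294 CPM and the farthest at 299 CPM. These were 3 of 108 tests, and chance flags about 1 in 20.

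The ethanol response differed between times for unc-97, by 0.50 on the log2 scale (at 6 h minus immediately). It differed between genotypes for act-2 (-0.29), pat-6 (-0.40) and unc-78 (-0.30), given as mutant minus wild type. These 4 differences were tested directly in edgeR and are described with their library values above.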

How the results depend on the processing

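Counts of called members depended on the processing as follows. DESeq2 called 2 members for ethanol at 6 h and 2 for the ethanol response by time. With no low count filter 1 was called for ethanol immediately in wild type and 3 by time. Fits on the compared groups alone called 1 for ethanol immediately, 3 at 6 h, 20 for time at 0 mM and 1 by genotype, and fits of wild type on all 30 libraries called 2 at 6 h and 3 by time. When libraries were left out, the count ran from 1 to 3 for ethanol immediately, 0 to 2 at 6 h, 19 to 27 in mutants, 26 to 38 and 20 to 28 for mutants against wild type at 0 and 400 mM, 5 to 22 and 2 to 13 for time at 0 and 400 mM, 0 to 6 by time and 1 to 6 by genotype. These ranges include a fit without the number 3 in every group, chosen after seeing the data, which called 1, 0, 22, 13, 0 and 6 members for ethanol immediately, at 6 h, time at 0 mM, time at 400 mM, by time and by genotype. Of the 13 for time at 400 mM, 11 were lower at 6 h, which reversed the direction of most calls. The cause was not tested. Over 579 alternatives of 33 single results of members, 531 kept their side of the threshold, 48 did not (35 when a library was left out) and none changed sign.

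The replicate numbers were not taken as pairs. The study's methods place the replicates on different days, with both doses in parallel, and do not say that a number marks a day. Of 15 pairs of a 400 and a 0 mM library with the same number, 8 had deviations that correlated above 0.1 (mean 0.11, -0.12 to 0.33). In 9 the same number was the best match among the 5 libraries at 0 mM of that genotype and time. This is more than a random choice among 5 would give on average. What a number marks was not tested. With the number as a replicate block, 12 members were called for ethanol immediately (2 higher, 10 lower), 14 at 6 h (all higher), 33 in mutants (5 higher, 28 lower), 17 by time (all more positive at 6 h) and 13 by genotype (2 more positive, 11 more negative in mutants), against 18.1%, 9.77%, 30.2%, 9.72% and 6.91% of all genes. In these fits the number was taken within each genotype and time. For genotype and time the block was instead an effect of the number shared by every group of the fit. It left those counts within 1.5 times.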

Other observations

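Values of the remaining gene lists are given without comparison to the members. Of 4 actin and myosin genes of other cells, 2 were lower with ethanol in mutants, and 1 was higher and 2 lower in mutants than in wild type at 400 mM. In wild type 1 of the 4 was lower immediately after ethanol, and nmy-1 was higher at 6 h (0.26). Of the 6 muscle transcription factor genes, 4 were lower at 6 h than immediately at 0 mM, and the bHLH gene hlh-1, the MyoD of worms, was lower with ethanol in mutants (-0.66). In wild type 1 of the 6 was lower immediately after ethanol (edgeR adjusted p = 5.1e-05), and the lowest estimate among the 6 was -1.97. The ethanol response of 1 of the 6 was more positive at 6 h than immediately, and that of 1 was more positive in mutants than in wild type. Of 6 sperm markers 5 could be tested, and 3 of these were lower at 6 h than immediately at each dose. Of the 6, 5 were at 0 in at least 1 library, and fer-1 was not. The epidermis markers dpy-7 and rol-6 were at 0 in at least 1 library, and dpy-7 was lower with ethanol in mutants (-1.34), as was sqt-3 (-1.34). Of the 6 epidermis markers tested in wild type, 1 was lower immediately after ethanol.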
